A study of Homo sapiens with 24 samples.

Results

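IGF1R, IGF2R, INSR, IRS1, IRS2, IGFBP2, IGFBP3, IGFBP4, IGFBP5 and PIK3R1 are 10 genes of insulin-like growth factor (IGF) and insulin signalling, and they were taken by symbol from the 60649 features of a table of read counts. Each symbol stood on 1 feature. The set holds 3 receptors, 2 receptor adaptors, 4 secreted binding proteins and 1 subunit of phosphoinositide 3-kinase (PI3K). A gene enters a test only if it passes a filter on low counts. In both studies 9 of the 10 passed, and IGFBP4 did not.

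IGFs and insulin bind receptor tyrosine kinases, which phosphorylate the docking proteins IRS1 and IRS2, and these in turn recruit PI3K through its regulatory subunit and start the AKT and mTOR cascade. The IGF binding proteins hold IGFs outside the cell and set how much ligand reaches the receptor. In prostate epithelium and prostate cancer the IGF1 receptor is known as a growth and survival receptor, and parts of this pathway are known to respond to androgen.

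The cells are LNCaP, an androgen-responsive human prostate cancer line. In study 1 they carried an empty vector (EmptyVect or EmptyVec in the labels, EV here) or a construct for WDR77-peptide 3 (P3), and in study 2 a control siRNA (Contr_siRNA, siCtrl here) or an siRNA against WDR77 (WDR77_siRNA, siWDR77 here). WDR77 is a coregulator of the androgen receptor, and the series title places the work on the contact between the 2 proteins. All 8 groups were kept in androgen-deprived medium and then given 5 nM R1881, a synthetic androgen, or its ethanol vehicle for 48 h, with 3 libraries in each group. Library values below follow the order S1, S15, S29 for EV_vehicle, S16, S2, S30 for EV_R1881, S19, S33, S5 for P3_vehicle, S20, S34, S6 for P3_R1881, S21, S35, S7 for siCtrl_vehicle, S22, S36, S8 for siCtrl_R1881, S23, S37, S9 for siWDR77_vehicle and S10, S24, S38 for siWDR77_R1881. The study's design calls these biological triplicates, and the p-values below measure the spread between these libraries. The labels give neither the sequence of the peptide nor the number of siRNAs, and every group is the same cell line, so the values describe 1 genetic background.

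The 24 libraries held 16665915 to 24260446 counts. WDR77 stood at 42.4 to 47.5 CPM (counts scaled to a common library size) in siCtrl_vehicle and at 11.5 to 15.1 CPM in siWDR77_vehicle, and at 64.8 to 68.6 against 13.6 to 15.9 CPM with R1881. In study 1 it stood at 54.9 to 63.5 CPM in EV_vehicle and 57.9 to 63 CPM in EV_R1881, and at 51.4 to 60.8 CPM in P3_vehicle and 86.2 to 97.4 CPM in P3_R1881, where reads of the construct and of the gene cannot be told apart. All 9 markers of luminal prostate cells were above 1 CPM in at least 1 library. KRT5 and TP63 (basal), CD3E (T cells) and CDH5 (endothelial) had 1, 5, 0 and 0 counts over the 24 libraries. Other markers of these lists were present, with KRT14 (basal) at up to 9.97 CPM and VWF (endothelial) at up to 18.5 CPM. One vehicle library of study 2, siCtrl_vehicle S35, stood apart. Mitochondrially encoded genes took 8.405% of its counts against 5.149% to 6.298% in the others, and KLK3, the androgen target that encodes prostate-specific antigen, was at 53.5 CPM against 207 and 208 CPM in the other siCtrl_vehicle libraries. Among the 10 genes, IGFBP3 (220.1 against 104 and 118 CPM), IRS1 (22.5 against 12.7 and 11.8 CPM) and IGF2R (526 against 745 and 728 CPM) differed in that library too. Each call of the 10 genes that rests on siCtrl_vehicle and changes without S35 is given with and without it. KLK3 with vehicle also differed between the studies, at a mean of 1322 CPM in EV_vehicle and 1891 CPM in P3_vehicle. It was at 156 CPM in siCtrl_vehicle and 170 CPM in siWDR77_vehicle, so the control arms of the studies did not start alike in this target. The cause was not tested. In bulk RNA, fewer cells of a kind and less RNA per cell cannot be told apart.

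The genes lie on 8 chromosomes, and IGFBP2 and IGFBP5 lie close together. IGF1R spans 98648539 to 98964530 of chromosome 15 on the plus strand, PIK3R1 68215720 to 68301821 of chromosome 5 on the plus strand, IGFBP2 216632828 to 216664436 of chromosome 2 on the plus strand and IGFBP5 216672105 to 216695525 of the same chromosome on the minus strand (GRCh38, GENCODE 29), with 7.67 kb between the last pair. Promoters of 3 of the genes are shown because the results turn on these genes, IGF1R with the strongest rise under R1881 and PIK3R1 and IGFBP2 with a fall in all 4 arms. Each is 300 bases around the transcription start site, most of them upstream, from RefSeq (GRCh38.p14), written 5′ to 3′ on the gene's own strand, which is the plus strand for all 3. Capitals mark GC boxes (GGGCGG on either strand) and, in IGFBP2 alone, a half-site of the androgen receptor motif (AGAACA, which reads TGTTCT on the strand shown).
IGF1R, chr15:98648289-98648588: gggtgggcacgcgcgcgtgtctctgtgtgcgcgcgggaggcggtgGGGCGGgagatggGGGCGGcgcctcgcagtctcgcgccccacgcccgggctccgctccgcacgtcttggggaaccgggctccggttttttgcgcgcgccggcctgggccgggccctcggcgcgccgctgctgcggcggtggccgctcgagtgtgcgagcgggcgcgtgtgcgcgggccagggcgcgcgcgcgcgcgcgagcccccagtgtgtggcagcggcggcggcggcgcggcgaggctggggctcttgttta
PIK3R1, chr5:68215506-68215805: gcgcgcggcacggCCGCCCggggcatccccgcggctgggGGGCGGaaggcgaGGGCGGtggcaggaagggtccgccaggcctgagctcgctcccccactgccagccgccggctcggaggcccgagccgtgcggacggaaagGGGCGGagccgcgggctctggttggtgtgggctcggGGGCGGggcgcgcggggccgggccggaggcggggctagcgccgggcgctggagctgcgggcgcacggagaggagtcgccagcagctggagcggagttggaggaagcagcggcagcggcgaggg
IGFBP2, chr2:216632578-216632877: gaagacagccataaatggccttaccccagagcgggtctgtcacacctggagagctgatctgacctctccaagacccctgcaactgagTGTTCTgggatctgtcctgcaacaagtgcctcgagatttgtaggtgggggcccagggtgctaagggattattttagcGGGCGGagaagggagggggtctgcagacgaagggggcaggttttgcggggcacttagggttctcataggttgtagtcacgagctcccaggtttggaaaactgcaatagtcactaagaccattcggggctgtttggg
The promoters of IGF1R and PIK3R1, which moved in opposite directions, were alike in base composition, with 79.7% and 80% G and C, while that of IGFBP2 held 55.3%. All 10 genes matched a RefSeq promoter, and only the first listed start site of each was searched. Any other start sites of these genes were left out. The GC box stood in 9 of the 10 and was missing from IGFBP5, against 45% of all 35116 promoters in the table. The androgen receptor half-site stood in 1 of 10, IGFBP2, at 163 bases before the start, against 14.8% of all promoters. The FOXO core motif GTAAACA, searched on both strands like the others, stood in 0 of 10 against 3.42%. These matches are letters in a short window and describe no binding.

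The first question is how the androgen changed these genes in cells with neither peptide nor knockdown. R1881 raised the receptors IGF1R and IGF2R and the adaptor IRS2 and lowered IGFBP2, IGFBP3, IGFBP5 and PIK3R1 in both control arms. In EV 4 of the 9 tested genes were higher and 4 lower at an adjusted p under 0.05 (edgeR quasi-likelihood test, adjusted over all 17772 genes tested), where 24.9% of all genes were higher and 26.4% lower. In siCtrl 4 were higher and 4 lower, where 25.7% and 25.4% of 17893 genes were. Of the 8 genes called in each arm, 7 were called in both and in the same direction. The matching share of all genes was not counted, so this number does not set these genes apart. The median log2 fold change of the 9 genes was 0.14 in EV and 0.25 in siCtrl, against -0.04 and -0.04 over all genes tested. Both medians are the value of INSR, which lay between genes that rose and genes that fell, and they show no shift of the set.

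**Figure D1:**
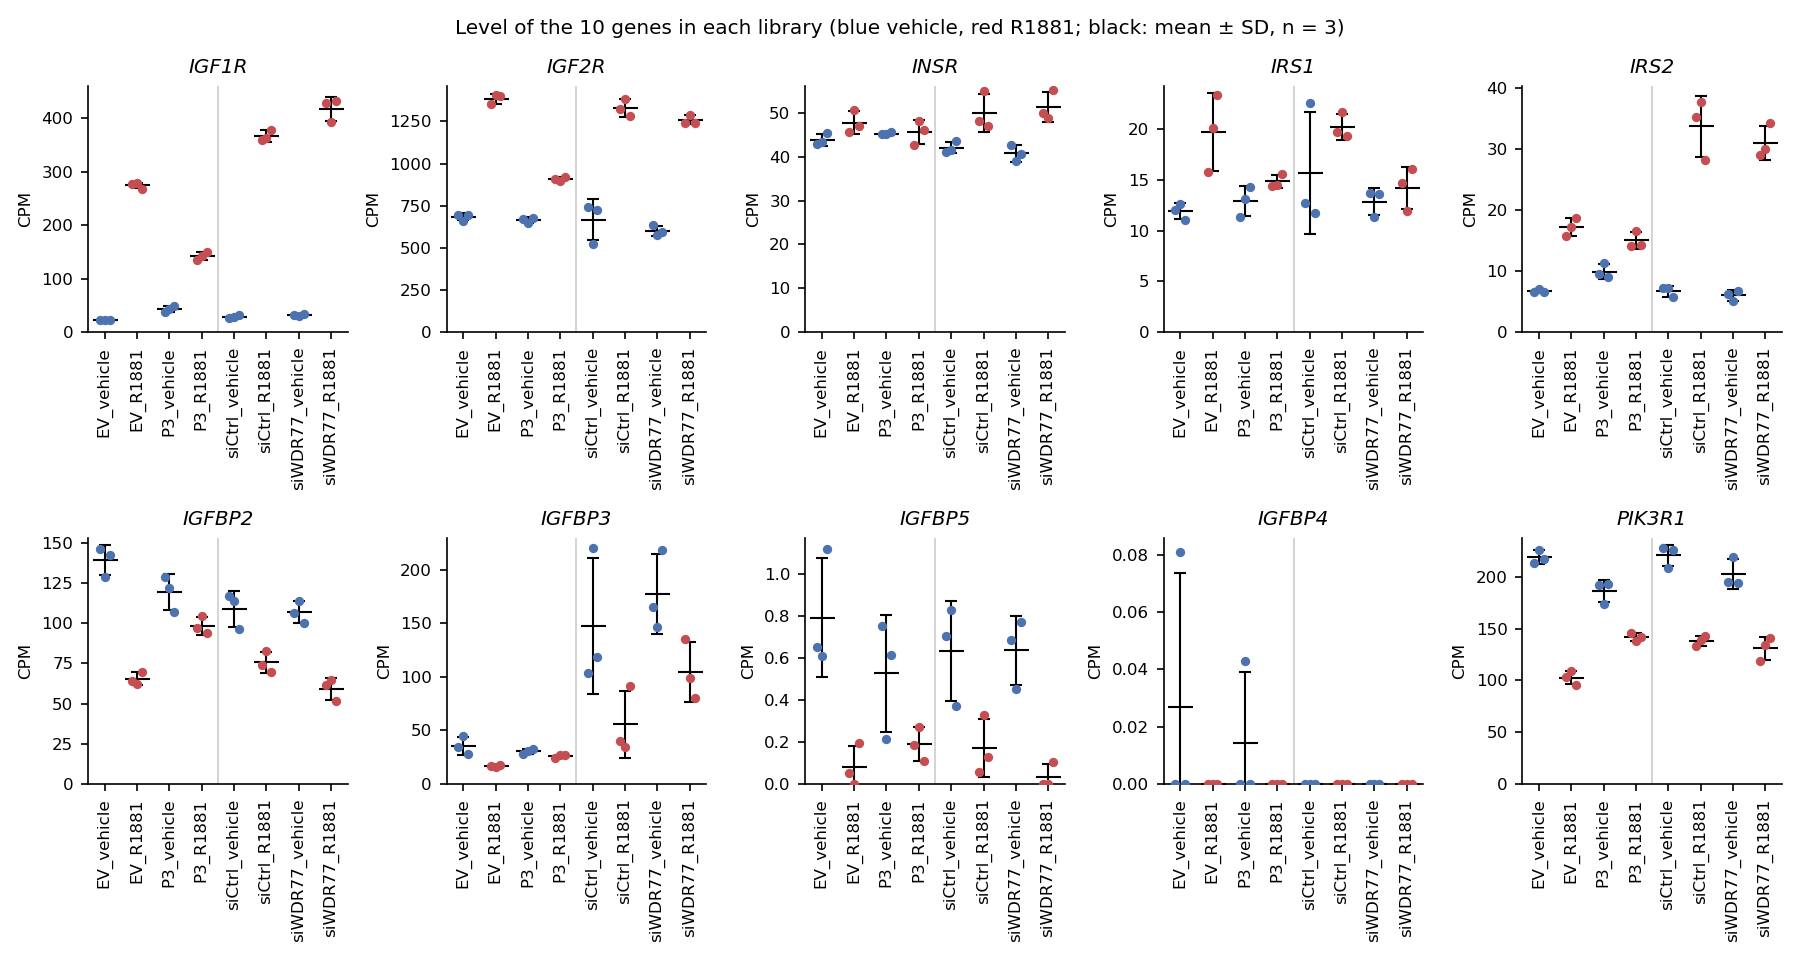
Level of each of the 10 genes in all 24 libraries, in CPM (vertical axes start at 0 and differ between panels), by group along the horizontal axis. Dots are libraries (blue vehicle, red R1881) and black bars the mean ± SD of 3. IGF1R rises from 22.1 to 23.7 CPM in EV_vehicle to 268 to 278 CPM in EV_R1881, and to a lower level in P3_R1881, and IGFBP4 is at 0 in nearly all libraries.

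Among the receptors, IGF1R, the receptor tyrosine kinase for both IGFs, rose most. It was at 23.7, 23.5 and 22.1 CPM in EV_vehicle and at 276, 278 and 268 CPM in EV_R1881, and at 27.1, 28.5 and 32.2 CPM in siCtrl_vehicle and 358, 363 and 378 CPM in siCtrl_R1881. No R1881 library came near a vehicle library in either study. The rise was 11.97-fold in EV (log2 fold change 3.58 ± 0.070 SE, adjusted p = 1.7e-34, edgeR) and 12.5-fold in siCtrl (3.64 ± 0.072, adjusted p = 2.28e-22).

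IGF2R, the receptor that clears IGF2 and sorts lysosomal enzymes and has no kinase, rose at a far higher level. EV_vehicle held 698, 661 and 698 CPM and EV_R1881 1352, 1407 and 1399.6 CPM. SiCtrl_vehicle held 745, 526 and 728 CPM and siCtrl_R1881 1323, 1385 and 1282 CPM, so that the groups did not overlap, S35 being the lowest vehicle library. The log2 fold change was 1.03 ± 0.046 in EV (adjusted p = 1.98e-22, edgeR) and 0.99 ± 0.10 in siCtrl (adjusted p = 1.78e-06), or 0.84 ± 0.055 without S35.

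INSR, the insulin receptor, moved least. Its libraries lay between 42.9 and 45.4 CPM in EV_vehicle and between 45.5 and 50.6 CPM in EV_R1881, just apart, and the difference of 0.14 ± 0.069 (log2) did not pass in EV (adjusted p = 0.0903, edgeR), though it did with RLE scaling (0.17, adjusted p = 0.033) and with DESeq2 (0.17, adjusted p = 0.0347). In siCtrl INSR rose by 0.25 ± 0.076 (log2, adjusted p = 0.00796), from 41.1 to 43.5 CPM to 46.9 to 54.9 CPM, a call that ends without siCtrl_R1881 S36 (0.18, adjusted p = 0.0806).

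IRS2, one of the docking proteins that link the receptors to PI3K, rose from 6.64, 7.14 and 6.6 CPM to 15.8, 17.2 and 18.6 CPM in EV (log2 fold change 1.35 ± 0.12, adjusted p = 1.64e-12, edgeR). In siCtrl it rose from 7.27, 7.17 and 5.69 CPM to 35.1, 37.7 and 28.1 CPM (2.33 ± 0.13, adjusted p = 1.35e-13). The vehicle levels of both control arms overlapped, and every siCtrl_R1881 library lay above every EV_R1881 library. The kind of transfection and the study cannot be told apart here, and the difference was not tested.

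IRS1, the other docking protein, rose in EV from 12, 12.7 and 11.1 CPM to 15.8, 20 and 23.3 CPM (0.73 ± 0.12, adjusted p = 1.96e-06, edgeR). In siCtrl it stood at 12.7, 22.5 and 11.8 CPM with vehicle and 19.7, 21.6 and 19.3 CPM with R1881, where S35 lay above all 3 hormone libraries. The log2 difference in siCtrl was 0.37 ± 0.21 (adjusted p = 0.175, edgeR), and without S35 IRS1 rose there too, by 0.72 ± 0.13 (adjusted p = 2.95e-05).

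All 3 binding proteins that could be tested fell with R1881 in both control arms. IGFBP2, a circulating carrier of IGFs that many epithelial tumours secrete, fell in EV from 147, 129 and 143 CPM to 63.8, 62.3 and 69.9 CPM, and in siCtrl from 117, 114 and 96.4 CPM to 74.3, 83 and 69.8 CPM. Vehicle and R1881 libraries did not overlap in either arm. The log2 fold changes were -1.08 ± 0.066 (adjusted p = 2.83e-17, edgeR) and -0.53 ± 0.089 (adjusted p = 5.03e-05).

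IGFBP3, the main IGF carrier of serum, fell in EV from 34, 44.5 and 28.1 CPM to 16.8, 15.4 and 17.5 CPM (-1.09 ± 0.12, adjusted p = 6.15e-08, edgeR). Study 2 ran at another level, with 104, 220.1 and 118 CPM in siCtrl_vehicle and 40.4, 34.3 and 91.7 CPM in siCtrl_R1881. These groups did not overlap, but their spread was wide, with 147 ± 63.3 and 55.5 ± 31.5 CPM (mean ± SD, n = 3). IGFBP3 fell in siCtrl (log2 fold change -1.42 ± 0.45, adjusted p = 0.0271, edgeR), and the call ended without S35 (-1.02, adjusted p = 0.0946), without siCtrl_R1881 S22 or S36 (adjusted p = 0.095 and 0.0909), without the filter (0.0531) and in the fit of 6 libraries (0.0992).

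IGFBP5 was close to the limit of detection, and its raw counts are the clearer measure. It had 48 counts over the 3 EV_vehicle libraries and 4 over the 3 EV_R1881 libraries, and 41 and 9 counts in siCtrl. The ratio of scaled counts, vehicle over R1881, was 10.1 in EV (95% exact interval 3.71 to 38.7) and 3.57 in siCtrl (1.71 to 8.36), where the interval covers counting error only. By edgeR it fell in EV (-3.23 ± 0.77, adjusted p = 0.000446) and in siCtrl (-1.83 ± 0.675, adjusted p = 0.0267). The siCtrl call ended without any of S35, S21, S22 and S8 (adjusted p = 0.0954, 0.0659, 0.132 and 0.0841), and in the fit of 6 libraries IGFBP5 did not pass the filter on low counts. IGFBP5 shares 298 exonic bases, 4.63% of its exons, with an antisense gene, and whether counting used strand is not given in the sources used here.

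IGFBP4, a binding protein cut by the protease PAPPA, had 2 counts in EV_vehicle, 1 in P3_vehicle and 0 in the other 6 groups. A group with no count allows up to 3 counts, which is 0.058 CPM in siCtrl_R1881 and less in the others. No fold is given for it.

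The summed level of 5 stromal markers (COL1A1, COL3A1, DCN, LUM and PDGFRB) also moved with the hormone, from 23.12 to 23.46 CPM in EV_vehicle to 13.36 to 16.04 CPM in EV_R1881, and from 26.85 to 32.69 CPM in siCtrl_vehicle to 10.15 to 11.99 CPM in siCtrl_R1881. It ran from 20.97 to 24.07 CPM in P3_vehicle to 17.04 to 20.67 CPM in P3_R1881, and from 24.97 to 29.16 CPM in siWDR77_vehicle to 7.488 to 9.115 CPM in siWDR77_R1881. DCN, which defines fibroblasts, had 2 counts in all 24 libraries and LUM stayed below 1 CPM in each, and of the 5 only COL1A1 and COL3A1 passed 2 CPM. Of the 3 endothelial markers CDH5 had 0 and PECAM1 6 counts in all, and VWF carried the sum, which was 14.64 to 18.51 CPM with vehicle and 6.966 to 8.248 CPM with R1881 in EV, 13.37 to 16.66 CPM with vehicle and 11.19 to 12.46 CPM with R1881 in P3, 6.253 to 14.43 CPM with vehicle and 4.088 to 6.756 CPM with R1881 in siCtrl and 9.314 to 13.31 CPM with vehicle and 2.797 to 5.835 CPM with R1881 in siWDR77. The 3 neuroendocrine markers, with CHGA at 2 counts in all, summed to 43.06 to 46.66 CPM with vehicle and 42.27 to 53.67 CPM with R1881 in EV, 49.07 to 53.7 CPM with vehicle and 41.47 to 51.75 CPM with R1881 in P3, 32.65 to 43.86 CPM with vehicle and 13.68 to 17.08 CPM with R1881 in siCtrl and 32.19 to 33.53 CPM with vehicle and 13.66 to 18.49 CPM with R1881 in siWDR77. Of the 3 basal markers only KRT14 passed 1 CPM, and their sum was 1.851 to 2.82 CPM with vehicle and 2.599 to 3.161 CPM with R1881 in EV, 2.088 to 2.759 CPM with vehicle and 2.816 to 3.37 CPM with R1881 in P3, 0.2299 to 1.024 CPM with vehicle and 5.974 to 9.974 CPM with R1881 in siCtrl and 1.323 to 1.862 CPM with vehicle and 6.757 to 8.169 CPM with R1881 in siWDR77. The endothelial sum was lower with R1881 in all 4 arms, without overlap except in siCtrl, whereas the neuroendocrine sum overlapped in EV and P3 and was lower with R1881 in siCtrl and siWDR77, and the basal sum overlapped in EV and was higher with R1881 in the other arms. ENO2, at up to 52.1 CPM, carried most of the neuroendocrine sum, with SYP at up to 7.78 CPM. Of the 2 neuroendocrine markers tested, 1 was called higher and 1 lower with R1881 in siCtrl and in siWDR77 (edgeR). In EV 1 was called higher and 0 lower, and in P3 neither was called. The 9 luminal markers, KLK3 among them, summed to 6073 to 6198 CPM with vehicle and 18580 to 20180 CPM with R1881 in EV, 6296 to 6676 CPM with vehicle and 11750 to 12100 CPM with R1881 in P3, 5347 to 5591 CPM with vehicle and 19940 to 21930 CPM with R1881 in siCtrl and 5830 to 5949 CPM with vehicle and 22080 to 23660 CPM with R1881 in siWDR77, with no overlap in any arm. The luminal sum does not speak for each marker. Of these 9 genes, 6 were called higher and 3 lower with R1881 in EV (edgeR), beside 24.9% and 26.4% of all genes. The same numbers were called in siCtrl and in siWDR77, and 6 and 2 in P3. The part of these markers in the changes of the genes was not tested.

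PIK3R1 encodes the main regulatory subunit of PI3K, which both stabilises and restrains the catalytic subunit. It fell in EV from 214, 227 and 218 CPM to 104, 109 and 95.8 CPM, and in siCtrl from 228, 209 and 226 CPM to 133, 139 and 143 CPM, with no overlap. The log2 fold changes were -1.08 ± 0.056 in EV (adjusted p = 4.33e-20, edgeR) and -0.68 ± 0.066 in siCtrl (adjusted p = 4.27e-09).

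**Figure D2:**
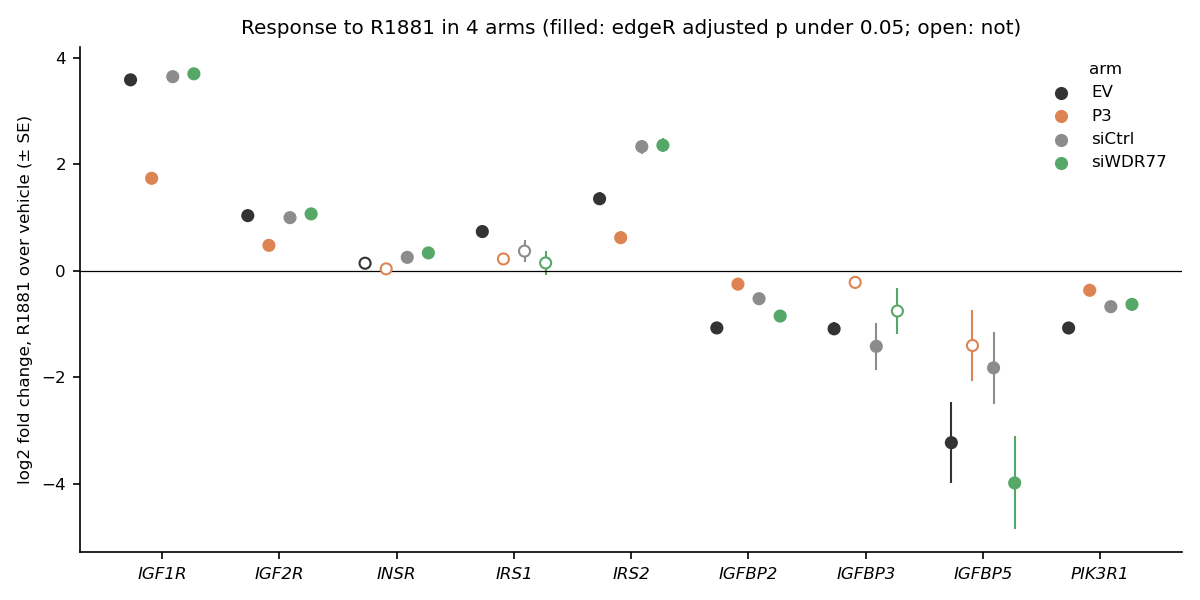
Log2 fold change of R1881 over vehicle (vertical axis, ± SE from edgeR) for the 9 genes tested (horizontal axis) in the 4 arms. Filled points passed an adjusted p under 0.05 and open points did not. For IGF1R the P3 point, at 1.73, lies below the other 3, which lie at 3.58 to 3.69, and the wide bars of IGFBP5 reflect its few counts.

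The second question is how the WDR77 peptide changed this response. With P3 the hormone moved 5 of the 8 genes called in EV, in the same direction. The share of all genes called in EV that were also called in P3 was not counted. The comparisons within a study share libraries. Of the 9 genes tested, 3 were higher (IGF1R, IGF2R and IRS2) and 2 lower (IGFBP2 and PIK3R1) with R1881 in P3, where 13% and 7.96% of all genes were. The log2 fold change was closer to 0 in P3 than in EV for 9 of 9 genes. A smaller move was not particular to these genes, since 9004 of the 9130 genes called in EV (98.6%) also moved less in P3. Those genes were chosen by their response in EV, and that choice alone favours a smaller value in P3. The 9 include INSR, not called in EV, so the 2 shares do not have the same base. In P3 the log2 fold change of IGF2R was 0.47 ± 0.045 (adjusted p = 3.49e-11, edgeR) and that of IRS2 0.62 ± 0.12 (adjusted p = 6.87e-05). IRS1, IGFBP3 and IGFBP5, called in EV, did not pass in P3 (adjusted p = 0.218, 0.212 and 0.136), nor did INSR (0.03 ± 0.068, adjusted p = 0.81).

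The difference in response between the arms (P3 minus EV, an interaction term on the log2 scale) passed for 7 of the 9 genes. It was lower for 4, IGF1R, IGF2R, IRS1 and IRS2, and higher for 3, IGFBP2, IGFBP3 and PIK3R1, where 11.1% and 11.5% of all genes were lower and higher. The genes that rose in EV thus had a lower term and those that fell a higher one. For INSR the term was -0.11 ± 0.097 (adjusted p = 0.489, edgeR) and for IGFBP5, with 35 counts over the vehicle and 11 over the R1881 libraries of P3 (ratio 2.72, 95% exact interval 1.35 to 5.94), 1.82 ± 1.1 (adjusted p = 0.25).

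IGF1R showed the change from both sides. P3_vehicle held 38.5, 43.5 and 48.3 CPM, all above EV_vehicle, and P3_R1881 135, 143 and 149.9 CPM, all below EV_R1881. Without hormone the peptide raised IGF1R by 0.93 ± 0.072 (log2, adjusted p = 2.2e-12, edgeR) and under R1881 it lowered it by a like amount (-0.92 ± 0.060, adjusted p = 7.04e-16). The hormone response shrank from 11.97-fold to 3.32-fold, a difference of -1.85 ± 0.093 (adjusted p = 8.22e-19).

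IRS2 followed the same pattern in vehicle, with 9.53, 11.3 and 9 CPM in P3 against 6.6 to 7.14 CPM in EV (0.56 ± 0.13, adjusted p = 0.00166, edgeR). Under R1881 the arms overlapped, at 14.2, 16.6 and 14.3 CPM in P3, and did not differ beyond their spread (-0.17 ± 0.11, adjusted p = 0.264). The smaller response of IRS2 in P3 (difference -0.73 ± 0.17, adjusted p = 0.00105) thus came with a higher starting level.

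For IGF2R the vehicle level was like that of EV, with 672, 647 and 680.2 CPM (-0.02 ± 0.045, adjusted p = 0.797, edgeR). P3_R1881 reached 911, 899 and 922 CPM, below all EV_R1881 libraries (-0.58 ± 0.045, adjusted p = 9.02e-14). The difference in response was -0.56 ± 0.064 (adjusted p = 4.5e-09). IRS1 stood at 11.3, 13.2 and 14.3 CPM with vehicle and 14.4, 14.5 and 15.6 CPM with R1881 in P3, a log2 difference of 0.22 ± 0.12 (adjusted p = 0.218).

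The IRS1 values were less firm. Under R1881 IRS1 was lower in P3 than in EV (-0.38 ± 0.12, adjusted p = 0.0105, edgeR), but without EV_R1881 S30, the highest library, this ended (adjusted p = 0.136), as it did in 1 fit of all 24 libraries (0.0965). The difference in response (-0.51 ± 0.17, adjusted p = 0.0237) ended likewise without S30 (0.113), without P3_vehicle S5 (0.079) and in the fit of 24 libraries (0.19).

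Of the 4 genes that R1881 lowered in EV, IGFBP2, IGFBP3 and PIK3R1 ended at higher levels with P3 than with EV under R1881. IGFBP2 went from 129, 122 and 107 CPM to 97, 105 and 93.7 CPM in P3 (log2 fold change -0.25 ± 0.064, adjusted p = 0.0025, edgeR), so that all P3_R1881 libraries lay above the 62.3 to 69.9 CPM of EV_R1881 (0.62 ± 0.066, adjusted p = 6.67e-10). IGFBP3 stood at 28, 30.5 and 32.5 CPM with vehicle and 23.8, 26.5 and 26.7 CPM with R1881, a log2 difference of -0.22 ± 0.12 that did not pass (adjusted p = 0.212). PIK3R1 fell from 193, 174 and 193 CPM to 146, 138 and 142 CPM (-0.37 ± 0.055, adjusted p = 1.08e-06).

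Under R1881, IGFBP3 was higher in P3 than in EV by 0.66 ± 0.13 (log2, adjusted p = 0.000225, edgeR) and PIK3R1 by 0.49 ± 0.056 (adjusted p = 2.06e-09), with no overlap of libraries for either. For IGFBP5, at 4 counts over the EV_R1881 and 11 over the P3_R1881 libraries, the difference under R1881 did not pass (1.26 ± 0.95, adjusted p = 0.317) and the libraries overlapped, as they did for INSR (-0.04 ± 0.069, adjusted p = 0.687). The differences in response were 0.82 ± 0.091 for IGFBP2 (adjusted p = 3.16e-09), 0.87 ± 0.17 for IGFBP3 (adjusted p = 0.000463) and 0.71 ± 0.078 for PIK3R1 (adjusted p = 1.74e-09). The 2 IGFBP3 calls ended when all 24 libraries, with the wider spread of study 2, entered 1 fit (adjusted p = 0.252 and 0.311).

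In counts, under R1881 3 of the 9 genes were higher in P3 than in EV and 3 lower, where 18.1% and 18.9% of all genes were. With vehicle 2 were higher, IGF1R and IRS2, and 2 lower, IGFBP2 and PIK3R1, where 7.93% and 7.88% were. These last falls were small (-0.20 ± 0.063, adjusted p = 0.0225, and -0.22 ± 0.054, adjusted p = 0.00502, edgeR) and neither held throughout. The IGFBP2 call ended without EV_vehicle S1 or S29, without P3_vehicle S5 and in the fit of 24 libraries (adjusted p = 0.175, 0.11, 0.188 and 0.0754), and the PIK3R1 call without P3_vehicle S33 (0.0872). IGFBP3, not called with vehicle, was lower in P3 without EV_vehicle S29 (-0.34, adjusted p = 0.0245), against -0.22 ± 0.11 with it. INSR (0.06 ± 0.068), IRS1 (0.14 ± 0.12) and IGFBP5 (-0.57 ± 0.54) did not pass with vehicle (adjusted p = 0.56, 0.486 and 0.511).

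**Figure D3:**
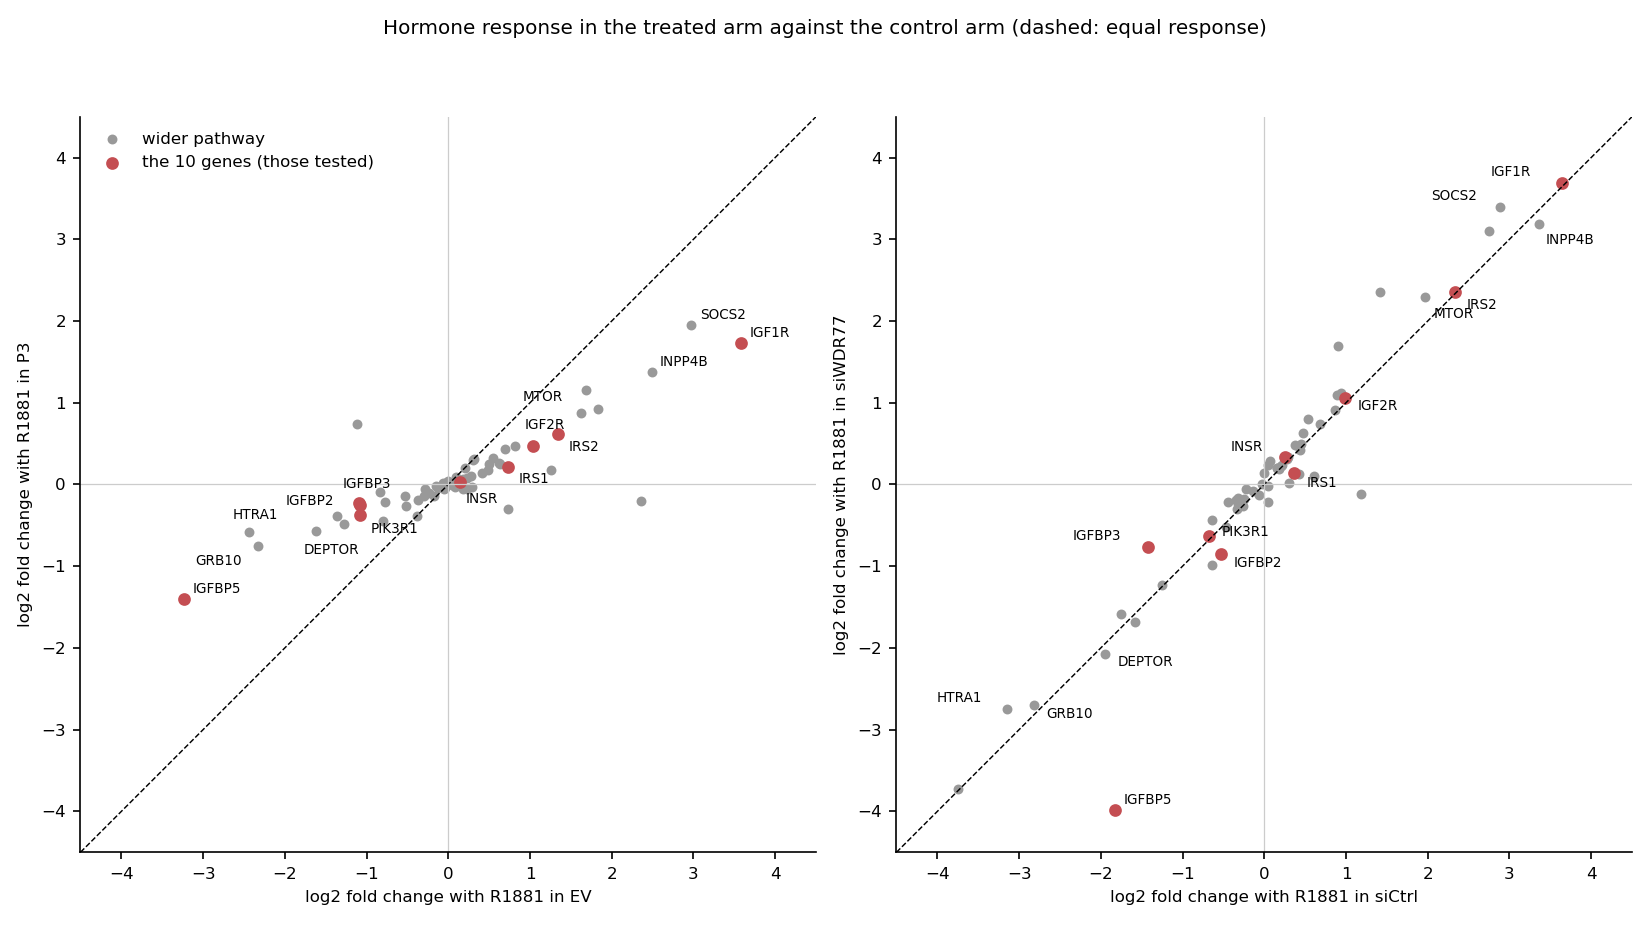
Log2 fold change with R1881 in P3 against EV (left) and in siWDR77 against siCtrl (right) for the genes tested (red) and a wider list of pathway genes (grey). Points on the dashed line respond alike in both arms. On the left the red points lie closer to 0 on the vertical than on the horizontal axis, and on the right IGF1R, IGF2R and IRS2 lie near the line, with IGFBP5, a gene of few counts, below it.

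The third question is whether loss of WDR77 changed the genes. With siWDR77 the response to R1881 was close to that with siCtrl for most of them. Of 9 genes 4 were higher (IGF1R, IGF2R, INSR and IRS2) and 3 lower (IGFBP2, IGFBP5 and PIK3R1), where 27.7% and 25.5% of all genes were. IGF1R rose from 32.8, 29.8 and 34 CPM to 427, 392 and 432 CPM (log2 fold change 3.69 ± 0.072, adjusted p = 1.36e-22, edgeR), IGF2R from 635, 575 and 594 CPM to 1244, 1291 and 1244 CPM (1.06 ± 0.10, adjusted p = 8.24e-07) and IRS2 from 6.33, 5.09 and 6.78 CPM to 28.9, 29.9 and 34.1 CPM (2.35 ± 0.13, adjusted p = 1.13e-13). Vehicle and R1881 libraries of these 3 genes did not overlap.

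INSR rose by 0.33 ± 0.075 (log2, adjusted p = 0.000608, edgeR) in siWDR77, from 38.9 to 42.7 CPM to 48.8 to 55.3 CPM. PIK3R1 fell from 195, 219.8 and 194 CPM to 119, 134 and 141 CPM (-0.63 ± 0.066, adjusted p = 1.18e-08), and IGFBP2 from 106, 114 and 100.1 CPM to 61.7, 64.4 and 51.5 CPM (-0.85 ± 0.089, adjusted p = 1.08e-07). IGFBP5 had 42 counts with vehicle and 2 with R1881, a ratio of 18.5 (95% exact interval 4.8 to 157), and fell by edgeR (-3.99 ± 0.87, adjusted p = 0.000425).

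IRS1 and IGFBP3 did not pass in siWDR77. IRS1 stood at 13.7, 11.4 and 13.6 CPM with vehicle and 14.6, 11.9 and 16.1 CPM with R1881, overlapping, with a log2 difference of 0.14 ± 0.22 (adjusted p = 0.613, edgeR). IGFBP3 went from 166, 147 and 219 CPM to 135, 98.6 and 79.8 CPM, with no overlap but a spread that left -0.76 ± 0.43 (adjusted p = 0.177).

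The difference in response between siWDR77 and siCtrl passed for 0 of the 9 genes in either direction, and for 0% and 0% of all genes (edgeR). At an unadjusted p under 0.05 it held for 1 of the 9, IGFBP2, and for 1484 genes in all (8.29%), and DESeq2 called 54 genes but none of the 9. The difference was 0.05 ± 0.095 for IGF1R, 0.07 ± 0.14 for IGF2R, 0.02 ± 0.19 for IRS2 and 0.04 ± 0.093 for PIK3R1 on the log2 scale. It was -0.33 ± 0.13 for IGFBP2 (adjusted p = 0.507), 0.66 ± 0.62 for IGFBP3 and -2.16 ± 1.2 for IGFBP5, and 0.08 ± 0.11 for INSR and -0.22 ± 0.30 for IRS1. A term that misses the threshold does not show equal responses, and the errors of IGFBP3 and IGFBP5 are too wide to tell a like response from a large difference. Without S35 the test called 43 genes and none of the 9, but 3 of the 9 then had an unadjusted p under 0.05. The difference moved to -0.60 ± 0.17 for IRS1 (adjusted p = 0.18, edgeR), to 0.19 ± 0.072 for IGF2R (adjusted p = 0.392) and to 0.23 ± 0.58 for IGFBP3 (adjusted p = 0.96).

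With vehicle 0 genes of the 9 differed between siWDR77 and siCtrl (edgeR), 0 at an unadjusted p under 0.05 and 0 by DESeq2, where 0.682% of all genes were higher and 0.844% lower. The log2 differences were 0.13 ± 0.072 for IGF1R, -0.15 ± 0.10 for IGF2R, -0.04 ± 0.075 for INSR, -0.28 ± 0.21 for IRS1, -0.14 ± 0.14 for IRS2 and -0.12 ± 0.065 for PIK3R1. Among the binding proteins they were -0.03 ± 0.087 for IGFBP2, 0.26 ± 0.43 for IGFBP3 and 0.01 ± 0.54 for IGFBP5, the last 2 with wide errors. Without S35 IRS1 stood at 0.08 ± 0.13 and IGFBP3 at 0.67 ± 0.43 (adjusted p = 0.868 and 0.577, edgeR), and IGF2R was lower after the knockdown (-0.29 ± 0.053, adjusted p = 0.00188), the remaining siCtrl_vehicle libraries at 745 and 728 CPM both lying above the 575 to 635 CPM of siWDR77_vehicle.

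Under R1881 0 were higher and 1 lower, IGFBP2, where 3.9% and 3.31% of all genes were. IGFBP2 lay at 51.5 to 64.4 CPM in siWDR77_R1881 and 69.8 to 83 CPM in siCtrl_R1881, apart (-0.35 ± 0.090, adjusted p = 0.0208, edgeR), but the call ended without siCtrl_R1881 S22 or S36 or siWDR77_R1881 S38 (adjusted p = 0.0653, 0.104 and 0.093). IGF1R, at 392 to 432 against 358 to 378 CPM, also did not overlap (0.19 ± 0.063, adjusted p = 0.0708). IRS1, at 11.9 to 16.1 against 19.3 to 21.6 CPM, lay apart too (-0.51 ± 0.22, adjusted p = 0.2) and passed without the filter (0.00198), with DESeq2 (0.0488) and in the fit of 6 libraries (0.0058). The other differences were -0.08 ± 0.10 for IGF2R, 0.04 ± 0.075 for INSR, -0.12 ± 0.12 for IRS2, -0.08 ± 0.067 for PIK3R1, 0.93 ± 0.45 for IGFBP3 and -2.15 ± 1.1 for IGFBP5, and none passed. In all 3 genes had an unadjusted p under 0.05, and DESeq2 called 2.

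**Figure D4:**
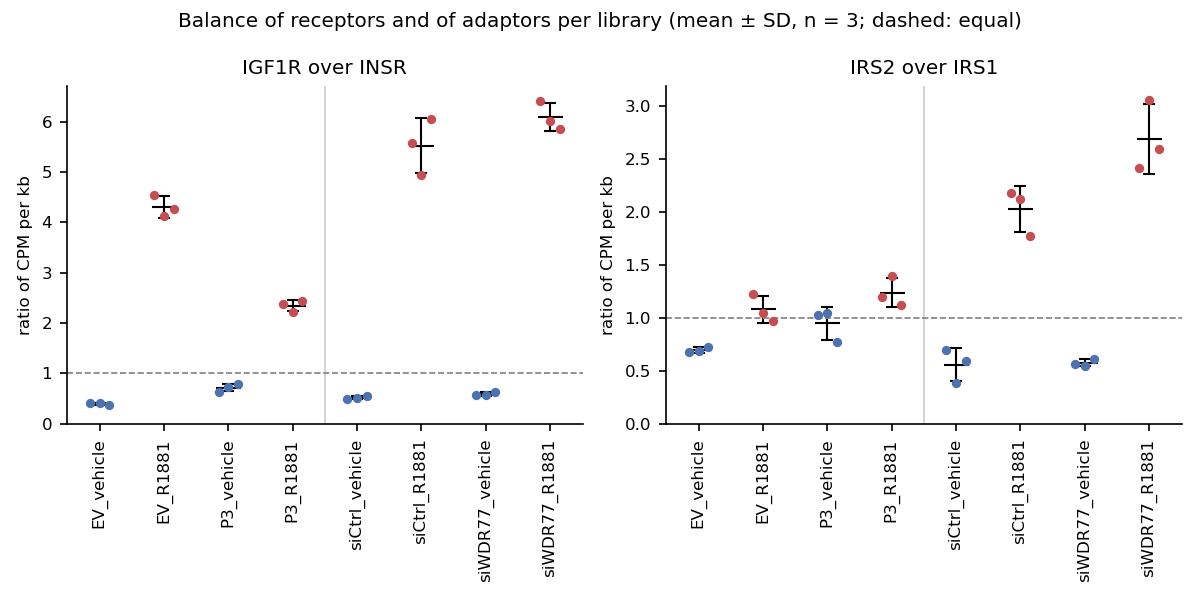
Ratio per library of IGF1R to INSR (left) and IRS2 to IRS1 (right), from CPM per kb of exon (vertical axes start at 0), by group. Dots are libraries (blue vehicle, red R1881), bars the mean ± SD of 3 and the dashed line an equal level. IGF1R over INSR is below 1 in all 12 vehicle libraries and above 1 in all 12 R1881 libraries.

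Per length of merged exons, the RNA levels give the balance within each pair of genes that encode like proteins. The ratio of IGF1R to INSR, which can form hybrid receptors, was 0.396 ± 0.027 in EV_vehicle and 4.31 ± 0.22 in EV_R1881 (mean ± SD, n = 3, CPM per kb), and 0.719 ± 0.077 and 2.35 ± 0.11 in P3. In study 2 it was 0.521 ± 0.032 and 5.52 ± 0.55 with siCtrl and 0.592 ± 0.031 and 6.09 ± 0.28 with siWDR77. By this measure INSR stood above IGF1R in every vehicle library, and IGF1R above INSR in every R1881 library. In CPM without scaling by length this order held except in P3_vehicle S5, with IGF1R at 48.3 and INSR at 45.6 CPM. Neither the proteins nor the isoforms expressed were measured.

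IRS2 over IRS1 went from 0.698 ± 0.028 to 1.08 ± 0.13 in EV and from 0.950 ± 0.16 to 1.24 ± 0.14 in P3 (CPM per kb). The EV_R1881 libraries ran from 0.976 to 1.22, so that the pair stood near an equal level there. In study 2 the ratio went from 0.560 ± 0.16 to 2.03 ± 0.22 with siCtrl and from 0.575 ± 0.033 to 2.69 ± 0.33 with siWDR77, and vehicle and R1881 libraries did not overlap.

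Per kb of exon IGF2R was the highest of the 10 in EV_vehicle, at 38.4 ± 1.18 CPM per kb, followed by IGFBP2 at 29.2 ± 1.94 and PIK3R1 at 20.4 ± 0.599. IGFBP3 stood at 7.78 ± 1.81, INSR at 4.2 ± 0.128, IGF1R at 1.66 ± 0.062, IRS1 at 1.2 ± 0.080, IRS2 at 0.835 ± 0.037 and IGFBP5 at 0.123 ± 0.044 CPM per kb. In EV_R1881 IGF1R, at 19.7 ± 0.374, was second to IGF2R, at 77.7 ± 1.68 CPM per kb.

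Over the 8 groups, IGF1R ran from siWDR77_R1881 (417 ± 21.9 CPM) through siCtrl_R1881, EV_R1881, P3_R1881 and P3_vehicle to siWDR77_vehicle, siCtrl_vehicle and EV_vehicle (23.1 ± 0.869 CPM), and of these neighbours only siWDR77_vehicle and siCtrl_vehicle overlapped. For IGF2R the 3 highest groups, EV_R1881, siCtrl_R1881 and siWDR77_R1881, overlapped in turn and stood apart from P3_R1881 at 910.3 ± 11.5 CPM. PIK3R1 was highest in siCtrl_vehicle, EV_vehicle and siWDR77_vehicle, which overlapped in turn, then came P3_vehicle, a run of 3 overlapping groups (P3_R1881, siCtrl_R1881 and siWDR77_R1881), and EV_R1881 lowest at 103 ± 6.61 CPM. For INSR and IRS1 every neighbour overlapped. IGFBP3 ordered by study, with the means of all 4 study 2 groups above those of all 4 in study 1, though siCtrl_R1881 and EV_vehicle libraries overlapped, from 177 ± 37.4 CPM in siWDR77_vehicle to 16.6 ± 1.06 CPM in EV_R1881, and this difference between the studies was not tested.

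The genes most like each member in pattern were found by Pearson's r of the log2 group means over the 8 groups, among genes of at least 1 CPM. For IGF1R these were SH3D21 (r = 0.9989), CALR4P (0.9987) and PLEKHG2 (0.9973), and for IGF2R ACTB (0.9981), ADAM17 (0.9968) and MPZL1 (0.9961). For PIK3R1 they were TTL (0.9953), CEBPA-DT (0.9891) and TFAP2C (0.9865), for IRS2 KLF15 (0.9953), CHD7 (0.9951) and CFAP221 (0.992), and for IGFBP2 CBLN2 (0.9913), MELTF-AS1 (0.989) and CEP57L1 (0.9866). INSR was nearest to SPATA13 (0.9928), IGFBP3 to MAP1B (0.9873) and IRS1, with the weakest match, to SPIN2B (0.9381). With 8 points that share libraries and the hormone contrast, and every gene above that level searched, such values are a description only.

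Beyond the 10 genes, a list of 64 other genes of the pathway, fixed by role, gives the setting. Where an arm is not named for a gene below, the gene may still have moved there. In EV 21 of the 54 tested were higher and 14 lower with R1881, beside 24.9% and 26.4% of all genes, and in P3 12 and 5, beside 13% and 7.96%. In siCtrl 22 and 17 of 52 were, beside 25.7% and 25.4%, and in siWDR77 21 and 16, beside 27.7% and 25.5%. Without S35 21 and 17 of the list were called in siCtrl, where 48% of all genes were called against 51.1% with it. The median log2 fold change of the list was 0.08 in EV and 0.11 in siCtrl, against -0.04 in each over all genes. The difference in response of P3 from EV was higher for 8 and lower for 12, beside 11.5% and 11.1% of all genes, and that of siWDR77 from siCtrl passed for 0 (edgeR), 1 without S35.

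Among the ligands IGF2 had 0 counts in all 24 libraries, which allows up to 0.058 CPM in a group. IGF1, the ligand of IGF1R, was scarce but rose with R1881, from 0.272 to 0.406 CPM to 1.14 to 1.37 CPM in EV (1.84 ± 0.49 on the log2 scale, adjusted p = 0.0016, edgeR) and by 2.75 ± 0.39 in siCtrl and 3.10 ± 0.42 in siWDR77. In P3 the log2 difference was 0.93 ± 0.49 (adjusted p = 0.193).

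Of the partners of the binding proteins, 0 rose and 3 of the 5 tested fell in EV, beside 24.9% and 26.4% of all genes. HTRA1, a secreted protease that cuts binding proteins, fell, with log2 fold changes of -2.44 ± 0.40 in EV, -3.14 ± 0.37 in siCtrl and -2.74 ± 0.35 in siWDR77, and stood at -0.58 ± 0.34 in P3 (adjusted p = 0.257, edgeR). STC1 and STC2 encode stanniocalcins, which inhibit the IGFBP4 protease PAPPA. STC1 fell in EV (-1.36 ± 0.25) and siCtrl (-3.75 ± 0.83), and STC2 fell in EV (-0.78 ± 0.062) and stood at 0.05 ± 0.10 in siCtrl (adjusted p = 0.731, edgeR).

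Of 12 receptor partners and adaptors tested, 5 rose and 2 fell in EV, beside 24.9% and 26.4% of all genes. In siCtrl 5 rose and 5 fell, beside 25.7% and 25.4%. SOCS2, a feedback inhibitor of growth hormone signalling, rose by 2.98 ± 0.097 in EV and 1.95 ± 0.097 in P3. Its mean also went from 8.35 to 61.7 CPM in siCtrl and from 7.74 to 82.1 CPM in siWDR77. GRB10, an adaptor that binds IGF1R and INSR and dampens them, fell (-2.33 ± 0.065 in EV, -0.75 ± 0.061 in P3, -2.82 ± 0.066 in siCtrl and -2.7 ± 0.066 in siWDR77). PTPN1, a phosphatase of the insulin receptor, rose by 0.82 ± 0.059 in EV and 0.94 ± 0.058 in siCtrl, and the adaptor SHC1 by 0.68 ± 0.061 in siCtrl and 0.74 ± 0.061 in siWDR77. Mean SHC1 went from 107 to 155 CPM in EV and from 104 to 127 CPM in P3. IGF1R thus rose and GRB10 fell in all 4 arms.

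Among the 8 PI3K genes tested in EV 1 rose and 2 fell, beside 24.9% and 26.4% of all genes. PIK3R1 was joined by another regulatory subunit. PIK3R3 fell in all 4 arms (log2 fold changes -1.28 ± 0.057 in EV, -0.48 ± 0.055 in P3, -1.58 ± 0.070 in siCtrl and -1.68 ± 0.070 in siWDR77). PIK3IP1, a membrane inhibitor of PI3K, fell in all 4 as well (-0.80 ± 0.082, -0.45 ± 0.081, -1.75 ± 0.078 and -1.59 ± 0.076 in the same order). PIK3AP1, an adaptor that recruits PI3K, rose by 0.69 ± 0.12 in EV and 0.43 ± 0.12 in P3. The catalytic subunit PIK3CD fell in siCtrl (-0.33 ± 0.057) and siWDR77 (-0.29 ± 0.057) and stood at 0.02 ± 0.052 in EV (adjusted p = 0.724, edgeR).

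Of the 6 phosphatases tested, 3 rose and 3 fell in EV, beside 24.9% and 26.4% of all genes. INPP4B, which acts on a PI3K product and is known as a brake on AKT, rose from 9.42, 10.8 and 9.68 CPM to 59.6, 60.4 and 46.6 CPM in EV (2.49 ± 0.11, adjusted p = 6.43e-22, edgeR), and by 1.37 ± 0.10 in P3, 3.36 ± 0.20 in siCtrl and 3.19 ± 0.20 in siWDR77. PHLPP2, a phosphatase of AKT, rose by 0.42 ± 0.073 and INPPL1, a lipid phosphatase, by 0.28 ± 0.056 in EV, and PHLPP1 fell in siCtrl (-0.47 ± 0.074) and siWDR77 (-0.52 ± 0.073). Mean PHLPP1 went from 47.3 to 36.1 CPM in EV and from 46.5 to 40.1 CPM in P3.

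In the AKT, mTOR and FOXO branch 11 of 22 rose and 4 fell in EV, beside 24.9% and 26.4% of all genes. In siCtrl 13 and 3 did, beside 25.7% and 25.4%. MTOR, the kinase itself, rose by 1.62 ± 0.051 in EV, 0.87 ± 0.050 in P3, 1.97 ± 0.067 in siCtrl and 2.29 ± 0.067 in siWDR77 (log2). DEPTOR, its inhibitor, fell in EV (-1.62 ± 0.12). Mean DEPTOR also went from 16.9 to 11.3 CPM in P3, 17.6 to 4.52 CPM in siCtrl and 18.6 to 4.41 CPM in siWDR77. SGK1, a kinase related to AKT and a known steroid target, rose by 1.16 ± 0.17 in P3 and 1.69 ± 0.12 in siWDR77. Its mean also went from 4.58 to 14.6 CPM in EV and from 8.40 to 15.7 CPM in siCtrl. FOXO3, a transcription factor that AKT holds out of the nucleus, rose by 0.62 ± 0.050 in EV and 0.26 ± 0.050 in P3. PDPK1, the kinase upstream of AKT, rose by 0.53 ± 0.057 in siCtrl and 0.80 ± 0.057 in siWDR77, and TRIB3, an AKT-binding pseudokinase, by 0.86 ± 0.079 in siCtrl. Mean PDPK1 went from 70.5 to 98.4 CPM in EV and from 69.8 to 81.8 CPM in P3.

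Between P3 and EV 6 of the list were higher and 4 lower in P3 with vehicle, beside 7.93% and 7.88% of all genes, and 11 higher and 17 lower under R1881, beside 18.1% and 18.9%. Between siWDR77 and siCtrl 1 was higher and 3 lower after the knockdown with vehicle, beside 0.682% and 0.844%, and 3 and 4 under R1881, beside 3.9% and 3.31%. Under R1881 GRB10 was higher in P3 than in EV by 1.32 ± 0.064 (log2, adjusted p = 3.07e-17, edgeR), and SOCS2, INPP4B and MTOR were lower (-0.85 ± 0.083, -0.82 ± 0.095 and -0.63 ± 0.049), as were the receptors IGF1R and IGF2R. All 35 list genes called in EV had a log2 fold change closer to 0 in P3, beside the 98.6% of all genes called in EV. Both sets were chosen by their response in EV, which favours a smaller value in P3.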

How the data were processed

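Polyadenylated RNA of 24 LNCaP libraries was sequenced. The authors deposited 1 table of raw read counts per gene. Per the submitters' processing notes, bcl2fastq 2.20, STAR 2.7.9a and featureCounts of Subread 1.6.4 were used on GRCh38.p7; for strand, multiply aligned reads and annotation release, the setting is not given in the sources used here. The table heads the columns of P3_R1881 with the word siRNA, and they were matched to their titles by sample number. Here, edgeR 4.0.16 (R 4.3.3) was fitted on the 12 libraries of each study with TMM scaling, filterByExpr and group as the only factor. P-values of its robust quasi-likelihood test were adjusted by Benjamini-Hochberg over all genes. A gene with an adjusted p under 0.05 is called. Levels are CPM scaled by TMM over all 24 libraries, and per kb by merged exons of GENCODE 29. SE come from the F statistic.

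The 10 genes and the lists were chosen with earlier results of these data known. The named genes are the 10, with IGFBP4 given by its counts only, and from each role of the list the up to 3 called genes with the smallest adjusted p in each hormone comparison; PIK3CD in EV, STC2 in siCtrl and some values of these genes in other arms are given beside them. For likeness the 3 genes with the highest r are taken, from log2(CPM + 0.5). Alternatives were RLE scaling, no filter, DESeq2 1.42.0, blocking on the run of sample numbers, all 24 libraries in 1 fit, only the 6 libraries compared, and each library left out. Libraries of a group were checked with a chi-square of their counts, which was 2.41 to 18.4 per degree of freedom, and none were alike within sampling noise.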

Additional observations from a re-analysis of the deposited data

Results flagged for a closer look

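In 7 of the genes the response to R1881 differed between P3 and EV by a test of the difference itself (edgeR interaction term, P3 minus EV, log2). It was -1.85 for IGF1R, -0.56 for IGF2R, -0.51 for IRS1 and -0.73 for IRS2, and 0.82 for IGFBP2, 0.87 for IGFBP3 and 0.71 for PIK3R1. In each the response was closer to 0 with P3, as it was for 98.6% of all genes called in EV, a set chosen by its response in EV.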

How the results depend on the processing

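Under the alternatives 1103 log2 values of the genes kept direction and side of the threshold, 25 lost the call, 11 gained it and 23 changed sign, none of the last called. Moves in the numbers of genes called are given apart from this tally. Calls of IGF1R, IGF2R, IRS2 and PIK3R1 for R1881 against vehicle held in all 4 arms under every alternative run. RLE in place of TMM moved the median of all genes by at most 0.0344 (log2). The number of genes lower in P3 with vehicle was 1 in the fit of 24 libraries and 1 to 2 with a library left out, and that lower with R1881 in siCtrl 2 in the fit of 6 libraries, where IGFBP5 was not tested, and 2 to 4 with a library left out. With a library left out, the number higher with R1881 in siCtrl was 3 to 5. That lower in P3 than in EV under R1881 was 2 to 3, and that with a lower difference in response in study 1 was 3 to 4. For siWDR77 against siCtrl, the number lower with vehicle was 0 to 1 with a library left out. Under R1881 1 was higher in the replicate block and in the fit of 6 libraries, 2 were lower with no filter, with DESeq2 and in the fit of 6 libraries, and 0 to 1 lower with a library left out. In the fit of 6 libraries IGF2R with vehicle was 0.0066 higher in P3 (log2). With 1 library left out, log2 values that changed sign ran from -0.028 to 0.061 for INSR in P3 with R1881 and from -0.050 to 0.018 for IGF2R in P3 against EV with vehicle. For siWDR77 against siCtrl with vehicle they ran from -0.46 to 0.079 for IRS1, -0.11 to 0.025 for IGFBP2 and -0.27 to 0.26 for IGFBP5, and under R1881 from -0.018 to 0.11 for INSR. For the difference in response of siWDR77 from siCtrl they ran from -0.024 to 0.10 for IGF1R, -0.019 to 0.19 for IGF2R, -0.088 to 0.13 for IRS2 and -0.011 to 0.11 for PIK3R1. The cause of these moves was not tested beyond the libraries named.

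Runs of sample numbers (S1 to S10, S15 to S24, S29 to S38) may or may not mark a pairing. Deviations of libraries of 1 run from their group means correlated at -0.0476 to 0.112, so the numbers were not taken to pair the samples. With the replicate block IGF1R under R1881 was higher in siWDR77 than siCtrl (0.19, adjusted p = 0.0435, edgeR), 16 genes in all differed in response in study 2, and no other call of the 10 genes changed. The test of the difference in study 2 called 112 genes without the filter and 40 in the fit of 24 libraries. IGFBP4 and IGFBP5 are limited by depth.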
